A study of Zea mays with 10 samples.

Results

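Leaf and root of maize (Zea mays) seedlings were compared within 4 lines, B73, id1 (P1-wwid1), id4 (P1-wwid4) and 9d9a (P1-vv9d9a). The comparison uses 8 of the 10 small RNA libraries of the series, 4 from leaf and 4 from root, with 1 library for each line and tissue. The other 2 libraries come from leaf of lines that have no root library here. The libraries were chosen by line and tissue from the sample titles, and all 20583 windows of 100 kb that held a read in any of the 8 libraries were used. The whole series has 20584 such windows, and 20527 held reads in every one of the 8. All seedlings were 14 days old and were raised in a growth chamber. B73 is a widely used inbred of maize, the source of its reference sequence. The other lines are named by their alleles of p1, which encodes a Myb transcription factor that controls phlobaphene pigments in ear and kernel tissues. The labels do not say how many plants went into a library, so the lines are the only replicates of a tissue. The p-values therefore reflect only how far these libraries differ. The tissue field of the leaf libraries reads seedling, while their titles and the tissue column of their files read leaf. Window counts carry no gene names, so the tissue could not be checked against marker genes.

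Small RNAs of plants fall into a few classes. MicroRNAs are cut from hairpin transcripts by Dicer-like enzymes and guide the cleavage or repression of messenger RNAs, and a few hairpin loci can supply a large part of a library. Short interfering RNAs are made from double-stranded RNA, often copied from transposons, and guide DNA methylation. In maize the short interfering RNAs are known to be dense near genes on the chromosome arms and sparse in the heterochromatin around the centromeres. A window count does not tell these classes apart. The files name neither the read lengths nor the genes, so no window below is assigned to a class, a gene, an exon or an intron. Positions are those the deposited files give to their windows, and neither the files nor the labels name a genome build.

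Read totals were 8472011 to 18396214 in leaf, with B73 the deepest, and 10921854 to 12160298 in root. The median window held 230 to 506 reads, a counting error of 6.59% to 4.45%. Levels are given as CPM, in which each file is scaled to the same total. Leaf and root of 1 line placed 9.08% to 12.4% of their reads in different windows. That share, the smallest part of the reads that would have to move for the libraries to match, was 5.24% to 6.80% between leaf libraries of different lines. It was 6.85% to 10.6% between root libraries. The root libraries were closest in the pairs B73 with id1 (6.85%) and id4 with 9d9a (7.33%), while the other 4 root pairs lay between 9.25% and 10.6%. The leaf libraries showed no such pairs. The labels give no batch.

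Small RNA levels differed between leaf and root in many windows, mostly by little. In whole tissue, fewer cells of a type and less RNA per cell cannot be told apart. The paired edgeR quasi-likelihood fit, with line as a block, called 7506 of 20583 windows at an adjusted p of 0.05 (36.5%). Of these, 3958 had more in leaf (19.2% of all windows) and 3548 more in root (17.2%). The median absolute log2 difference of these windows was 0.41, and 75.6% of them differed by less than 1.5-fold. Differences over 2-fold numbered 189 towards leaf (0.918%) and 163 towards root (0.792%). Over 4-fold differences numbered 18 in leaf and 12 in root, and over 8-fold differences 5 in leaf and 0 in root. In 2978 windows (14.5%) every leaf library lay above every root library, and in 2718 (13.2%) every root library lay above every leaf library. Without the block 4887 windows passed (23.7%), 11.9% of all windows towards leaf and 11.8% towards root. Which tissue held more of the calls depended on the scaling and the tool. Leaf held 52.7% of the calls with file totals, 47.1% with TMM factors, 60.1% with totals that left out the 1% most read windows and 40.98% with DESeq2. With TMM factors 37.1% of windows were called, 17.5% towards leaf and 19.6% towards root. With the reduced totals 38.5% were called, 23.2% and 15.3%. DESeq2 called 26.5%, 10.9% and 15.7%. The median fitted difference of all windows was 0.049 with file totals, 0.023 with TMM factors, 0.085 with the reduced totals and 0.017 with DESeq2.

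Along the chromosome arms, root held relatively more small RNA towards the ends and leaf relatively more towards the centromeres. Each arm was divided into 5 equal classes from the chromosome end (class 1) to an approximate centromere position (class 5), taken from general knowledge and rounded to 5 Mb. The median log2 ratio of leaf over root, on the log2(CPM + 1) scale, rose in steps from -0.017 ± 0.031 (SD, n = 4 lines) in class 1 to 0.009 ± 0.031, 0.025 ± 0.036, 0.063 ± 0.041 and 0.10 ± 0.047 in class 5. The medians in class 1 were -0.035 in B73, -0.048 in id1, -0.0049 in id4 and 0.020 in 9d9a. Those of class 5 were 0.084, 0.078, 0.077 and 0.17 in the same order. Class 5 exceeded class 1 by 0.12 in B73, 0.13 in id1, 0.082 in id4 and 0.15 in 9d9a, a mean of 0.12 ± 0.029 (SD), with the same direction in 4 of 4 lines. The exact two-sided sign-flip permutation test over lines gave p = 0.125, the smallest that 4 lines allow. With TMM factors the class 1 mean was -0.043 and the class 2 mean, at -0.016, changed sign, while the contrast of class 5 over class 1 was 0.12. With a pseudocount of 5 the contrast was 0.073.

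**Figure D1:**
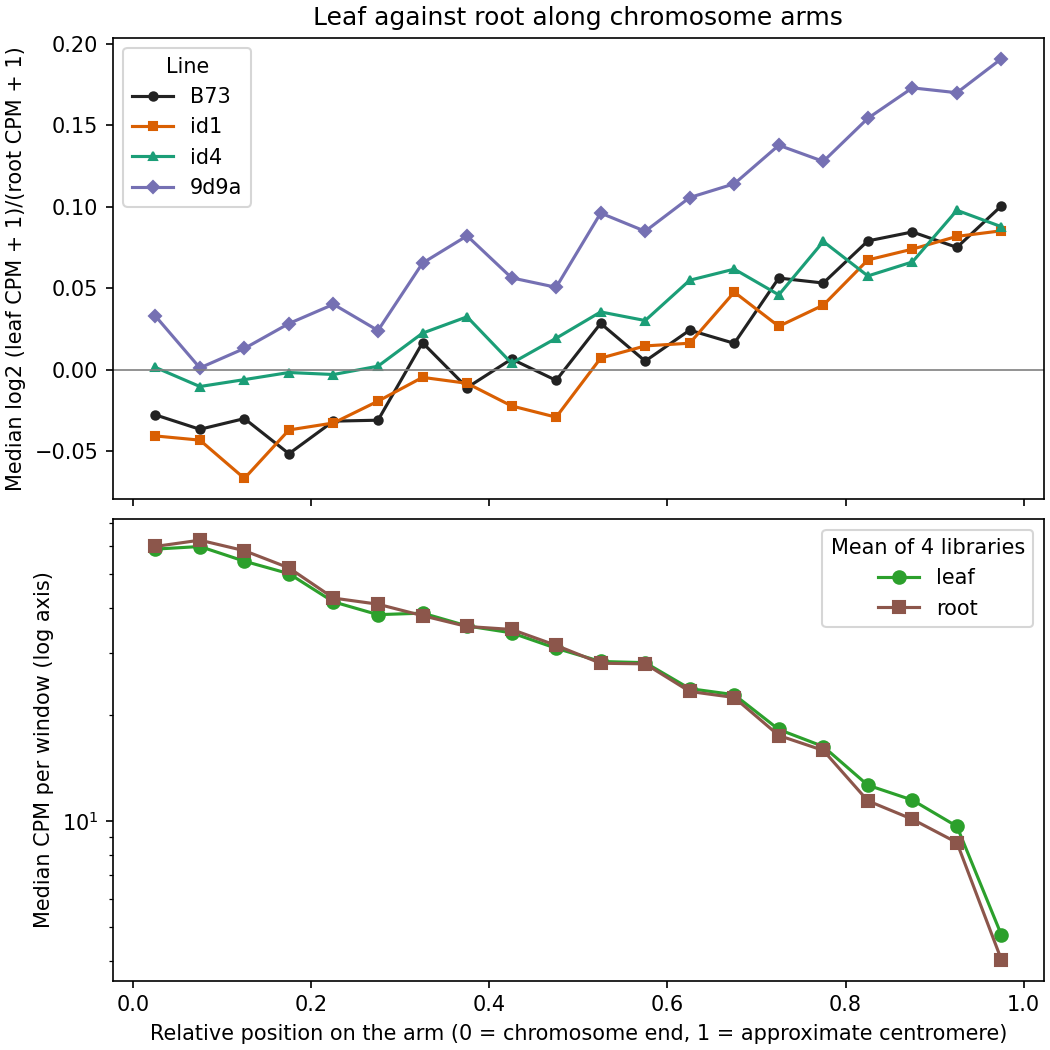
Upper panel: median log2 ratio of leaf over root per window (y axis) by relative position on the arm (x axis, 20 steps from chromosome end to approximate centromere), 1 line per maize line. Lower panel: median CPM per window on a log axis, as the mean of the 4 leaf and the 4 root libraries; the ratio climbs towards the centromere in all 4 lines while the level falls.

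The same direction was found on every arm. Class 5 lay above class 1 in all 80 pairs of 20 arms and 4 lines. The arms of a line share its libraries and scaling, so these pairs are not independent. The arm means ran from 0.068 ± 0.022 (SD, n = 4 lines) on the long arm of chromosome 4 to 0.18 ± 0.013 on the long arm of chromosome 7. Between them lay the short arm of chromosome 10 at 0.15 ± 0.038 and the long arm of chromosome 1 at 0.080 ± 0.050. On the long arm of chromosome 7 the 4 lines were between 0.17 and 0.19. Median read level also fell from class 1 to class 5 on every arm. It went from 68.1 to 2.79 CPM on the long arm of chromosome 7 and from 74.8 to 16.2 CPM on that of chromosome 10. Root calls also became fewer along the arm, but hardly so within the middle and highest groups of read level given below. Higher in root were 941 of 4117 windows in class 1 (22.9%), then 20.04%, 18.5% and 14.6%, and 419 of 4117 in class 5 (10.2%). Higher in leaf were 18.4% in class 1 and 20.01% in class 5, close to the 19.2% of all windows. The over 2-fold calls in leaf were most frequent in class 5, with 59 windows (1.43%) against 34 in class 1 (0.826%). Such calls also varied with read level, in the level classes given below. They made up 1.31% and 1.55% of level classes 1 and 2, the least read, and 0.292% and 1.02% of level classes 9 and 10. Their position was not compared within groups of read level. The over 2-fold calls in root numbered 25 (0.607%), 32 (0.777%), 43 (1.04%), 35 (0.850%) and 28 (0.680%) from arm class 1 to class 5. Their highest count was in the middle of the arm.

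Read level fell along the same axis. The median level was 55.6 CPM (leaf) and 58.0 CPM (root) in class 1, against 9.12 CPM (leaf) and 8.41 CPM (root) in class 5. Class 1 received 32.9% of leaf reads and 33.6% of root reads, and class 5 received 8.09% and 7.85%.

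Sorted by read level, the windows with little small RNA leaned to leaf and the windows with much leaned to root. Windows were placed in 10 classes of equal size by mean CPM over the 8 libraries. The median log2 ratio of leaf over root was 0.14 ± 0.053 (SD, n = 4 lines) in class 1, the least read, and 0.18 ± 0.047 in class 2. It was 0.086 ± 0.034 in class 4, 0.022 ± 0.043 in class 6, -0.044 ± 0.045 in class 8 and -0.049 ± 0.047 in class 10. All 4 lines were above 0 in classes 1 to 5 and all 4 were below 0 in classes 9 and 10. With TMM factors, 1 line fell below 0 in class 5, and all 4 were below 0 from class 7 on. The step from class 1 to class 10 was -0.20 in B73, -0.23 in id1, -0.10 in id4 and -0.21 in 9d9a, again the same direction in 4 of 4 lines (exact sign-flip permutation p = 0.125, the smallest possible). The mean step was -0.19, and -0.094 with a pseudocount of 5. B73 and id1 reached -0.094 and -0.084 in class 10, while id4 and 9d9a stood at -0.018 and -0.00069.

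**Figure D2:**
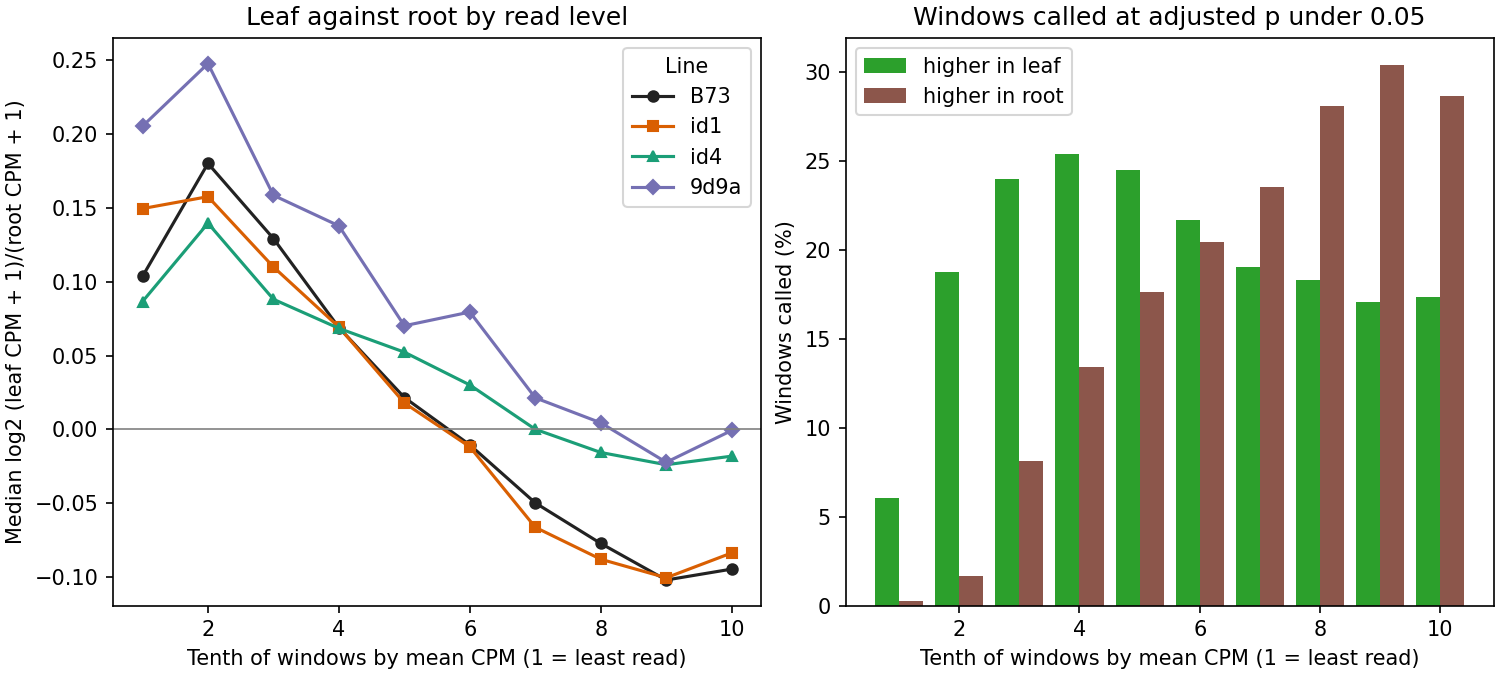
Left: median log2 ratio of leaf over root (y axis) in 10 classes of read level (x axis), 1 line per maize line. Right: percentage of windows in each class called higher in leaf or higher in root; leaf calls prevail in classes 1 to 5 and root calls from class 7 on.

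The balance of calls turned over with level. In class 2, with levels of 1.93 to 6.04 CPM, 386 of 2058 windows were higher in leaf (18.8%) and 35 higher in root (1.70%). In class 6, at 27.9 to 38.3 CPM, the shares were 21.7% and 20.5%. In class 9, at 73.9 to 112 CPM, 352 windows were higher in leaf (17.1%) and 626 higher in root (30.4%). Counting error limits the low classes. The median counting error of a line's log2 ratio of raw reads was 0.56 in class 1 and 0.35 in class 2, and it was 0.051 in class 10. It leaves out the added 1 CPM, which narrows the ratios of low windows, so it overstates their error. On the log2(CPM + 1) scale the median SD between lines was 0.29 in class 1, 0.27 in class 2 and 0.12 in class 10.

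Position was then compared within 3 equal groups of read level, chosen after seeing the data. Level still fell along the arm inside each group, with medians of 6.51 CPM in arm class 1 and 2.50 CPM in arm class 5 in the lowest, 29.3 and 25.4 CPM in the middle and 95.5 and 68.3 CPM in the highest, so these contrasts still carry level. Within the lowest group the ratio hardly depended on position, at 0.15 ± 0.038 in arm class 1 and 0.14 ± 0.047 in arm class 5, a contrast of -0.0085 ± 0.023 (SD, n = 4 lines) with 2 lines on each side of 0. Within the middle group the contrast was 0.062 ± 0.028 and within the highest 0.034 ± 0.016, both above 0 in 4 of 4 lines. Windows higher in root made up 6.10% of arm class 1 and 3.44% of arm class 5 in the lowest group. The shares were 18.6% and 17.1% in the middle group and 29.1% and 30.3% in the highest. The fall of root calls along the whole arm was thus mostly absent among windows of similar level. The level contrast stayed at every position. The highest group lay below the lowest by 0.21 ± 0.037 log2 units in arm class 1 and by 0.16 ± 0.054 in arm class 5, in 4 of 4 lines in each of the 5 classes. Level classes taken from the leaf libraries of lines 714 and 714H, which enter no ratio, gave 0.12 ± 0.052 in class 1, 0.15 ± 0.044 in class 2, -0.034 ± 0.051 in class 9 and 0.005 ± 0.042 in class 10. There class 10 was no longer below 0. In each of classes 7 to 10 of that sorting, B73 and id1 were below 0 and id4 and 9d9a above 0. With TMM factors no line was above 0 in these classes.

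Whole chromosomes hardly differed. The chromosome median of the ratio ran from 0.024 ± 0.036 (SD, n = 4 lines) on chromosome 5 to 0.044 ± 0.029 on chromosome 9, a range smaller than the spread between lines on any chromosome. With TMM factors the values shifted down, to -0.00046 on chromosome 5 and 0.020 on chromosome 9. Windows higher in leaf made up 18.1% of chromosome 5 and 21.6% of chromosome 9, and windows higher in root 15.95% of chromosome 9 and 18.97% of chromosome 10. Over 2-fold calls were few on each chromosome, and their shares were not tested against each other. Chromosome 7 had 24 towards leaf (1.36% of its windows) and 11 towards root (0.623%), against 0.918% and 0.792% of all windows. Chromosome 8 had 19 (1.08%) and 7 (0.398%), and chromosome 3 had 18 (0.776%) and 26 (1.12%). Chromosome 10 had 20 (1.33%) and 19 (1.26%), and chromosome 6 had 13 (0.768%) and 20 (1.18%).

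A few windows carried much of the leaf excess. Summed over windows, 9.88% of reads lay in the excess of leaf over root, and as much in the excess of root over leaf. In leaf, 10 windows made up 25.2% of that excess and a single one made up 9.99%, and 370 windows made up 50% of it. In root the 10 largest made up 9.05%, the single largest 4.23%, and 914 windows were needed for 50%. These sums use tissue means and include windows that were not called. The largest in root, at 46.8 Mb of chromosome 1, was not called in the paired fit (adjusted p = 0.317). Root was far above leaf there in id4 and 9d9a only.

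The share of a library's reads in its own 1% most read windows (206 windows) was similar in the 4 leaf libraries and varied in root. It was 14.1% in B73, 14.9% in id1, 13.6% in id4 and 14.2% in 9d9a leaf. In root it was 9.82%, 10.9%, 13.0% and 14.9% in the same order. Leaf exceeded root by 4.23, 3.99 and 0.57 percentage points in B73, id1 and id4, and in 9d9a root exceeded leaf, with a leaf minus root difference of -0.68. The difference, 2.03 ± 2.46 points (SD, n = 4 lines), was within the spread between lines (exact sign-flip permutation p = 0.375).

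**Figure D3:**
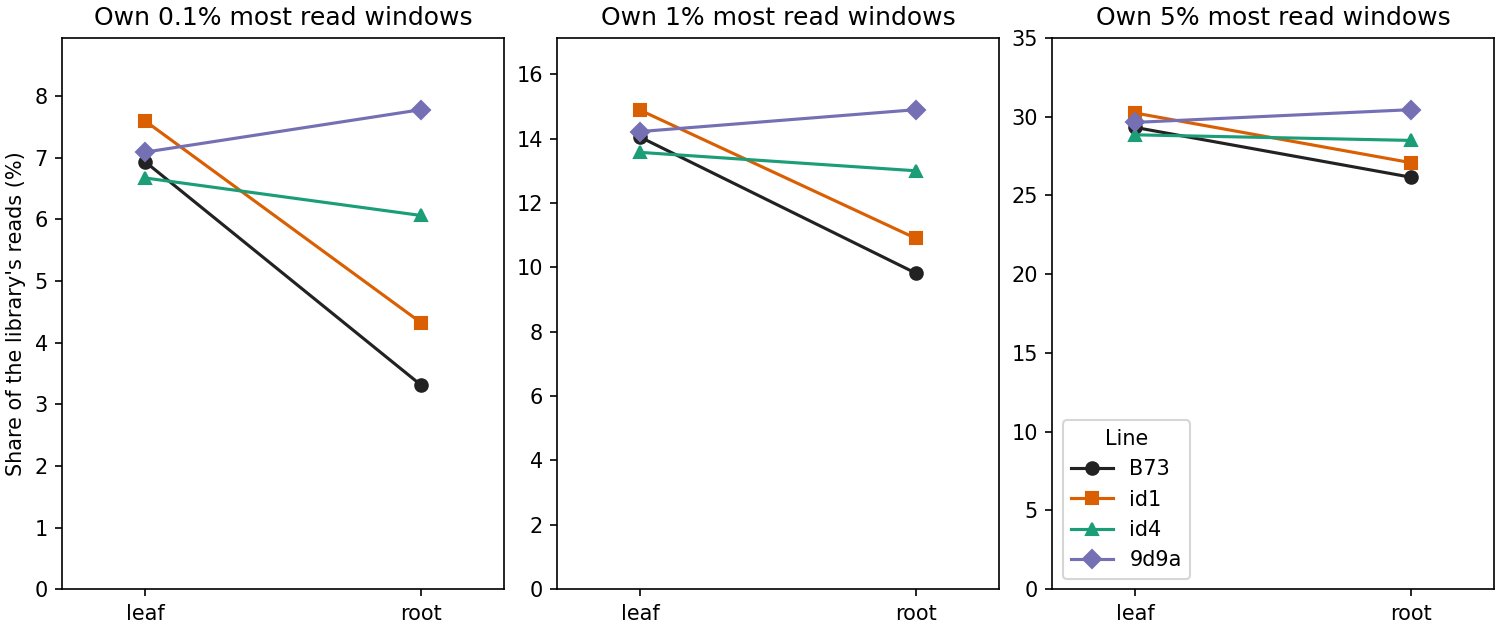
Share of each library's reads (y axis, percent) in its own 0.1%, 1% and 5% most read windows, for leaf and root of each line (points joined within a line). The 4 leaf libraries lie close together, and the root libraries spread from B73, the lowest, to 9d9a, the highest.

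The most read window of the genome, at 96.1 to 96.2 Mb of chromosome 6, was higher in leaf in every line. It held 16886 CPM in B73, 26127 in id1, 19158 in id4 and 20812 in 9d9a leaf, and 5424, 11863, 9618 and 16598 CPM in root. The groups did not overlap, with id1 the highest leaf and 9d9a the highest root. The log2 difference was 1.03 ± 0.28 (SE, adjusted p = 0.00929), and the call was lost without B73 (log2 0.82, adjusted p = 0.114), without id1 (0.99, adjusted p = 0.151) and without id4 (1.04, adjusted p = 0.0747).

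Of the 10 most read windows, 5 were called, 4 of them higher in leaf, where 36.5% of all windows were called and 19.2% were higher in leaf. The window at 183.5 Mb of chromosome 5 held 6153 to 7646 CPM in the 4 leaf libraries. In root it held 93.6 in B73, 201 in id1, 1058 in id4 and 94.8 in 9d9a. Its log2 difference was 5.13 ± 0.87 (SE, adjusted p = 0.022), and without B73 (4.70, adjusted p = 0.0527) or 9d9a (4.78, adjusted p = 0.0608) it missed the threshold. At 144.2 Mb of chromosome 10, leaf held 4919 CPM in B73, 1551 in id1, 4071 in id4 and 4602 in 9d9a, and root held 1281, 530, 3392 and 3059. There id1 was the low line in both tissues, so that the groups overlapped although leaf was the higher tissue within each line. The call (1.08 ± 0.27, adjusted p = 0.0124) was lost without the block (0.87, adjusted p = 0.398). At 299.6 Mb of chromosome 1 the call (0.51 ± 0.19, adjusted p = 0.0476) was lost under 6 of 9 alternatives, among them without B73 (0.36, adjusted p = 0.242) and without id1 (0.33, adjusted p = 0.373). The only root-high window among the 10, at 204.7 Mb of chromosome 5, held 2182 CPM in B73, 3967 in id1, 2382 in id4 and 5116 in 9d9a root. Leaf held 1092, 1336, 1088 and 1187, all below every root library (log2 -1.45 ± 0.17, adjusted p = 1.32e-05).

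The other 5 of the 10 missed the threshold. At 158.3 Mb of chromosome 8, leaf (3159 ± 299 CPM, SD, n = 4) and root (3279 ± 302 CPM) lay within each other's spread (log2 -0.05 ± 0.15, adjusted p = 0.81). In 6 of the 10 windows the B73 and id1 root libraries both lay below the id4 and 9d9a root libraries, as in 17.4% of all windows (3573 of 20583). They both lay above in 27.7% of all windows. In all, the 10 windows took 4.92% to 5.62% of the reads of the 4 leaf libraries. In root they took 2.04% in B73, 2.94% in id1, 4.10% in id4 and 5.55% in 9d9a.

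Other windows with large amounts of leaf small RNA lay on chromosomes 1, 2 and 5. At 51.2 Mb of chromosome 1, leaf held 1915 to 2984 CPM and root 276 to 1098, with no overlap (2.23 ± 0.30, adjusted p = 0.00257). At 218.5 Mb of chromosome 2, leaf held 917 to 1039 CPM and root 107 in B73, 201 in id1, 424 in id4 and 216 in 9d9a (2.22 ± 0.38, adjusted p = 0.0202, lost without 9d9a at 0.0941, where log2 was 2.22). At 167.3 Mb of chromosome 5, leaf held 615 to 1191 CPM and root 132 to 361. That call (2.01 ± 0.46, adjusted p = 0.0483) was lost without B73 (1.68, adjusted p = 0.0989), id1 (1.92, adjusted p = 0.103) or 9d9a (2.01, adjusted p = 0.169). It was also lost with TMM factors (adjusted p = 0.0529) and with totals that left out the 1% most read windows (adjusted p = 0.0507).

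Where the weakest line decided the ranking, the leaf list was led by the window at 82.4 Mb of chromosome 10. It held 540 CPM in B73, 502 in id1, 488 in id4 and 512 in 9d9a leaf, and 1.97, 3.996, 5.49 and 1.24 CPM in root. Its weakest line, id4, still differed by 6.23 on the log2 scale. The fewest reads in a library there were 14, so the size in 9d9a root rests on little. At 121.9 Mb of chromosome 4, leaf held 69.5 to 89.7 CPM and root 5.77 to 9.57 (3.32 ± 0.13, adjusted p = 2.95e-10). At 20.5 Mb of chromosome 5 leaf held 300.2 to 416 CPM and root 33.8 to 57.5. The windows at 63 Mb of chromosome 9 and 127.7 Mb of chromosome 1 were less read, with 27.1 to 34.3 and 25.6 to 31.6 CPM in leaf and 3.73 to 5.13 and 1.73 to 4.58 in root. In all of these windows, and at 183.5 Mb of chromosome 5, leaf and root did not overlap. The ranking by the weakest line favours such windows, and 14.5% of all windows had every leaf library above every root library. Of the 6, 3 lay in arm class 5, the innermost of 5 equal classes. In the root ranking below, only the window at 115.6 Mb of chromosome 5 lay in that class. Whether the rankings differ in position was not tested.

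**Figure D4:**
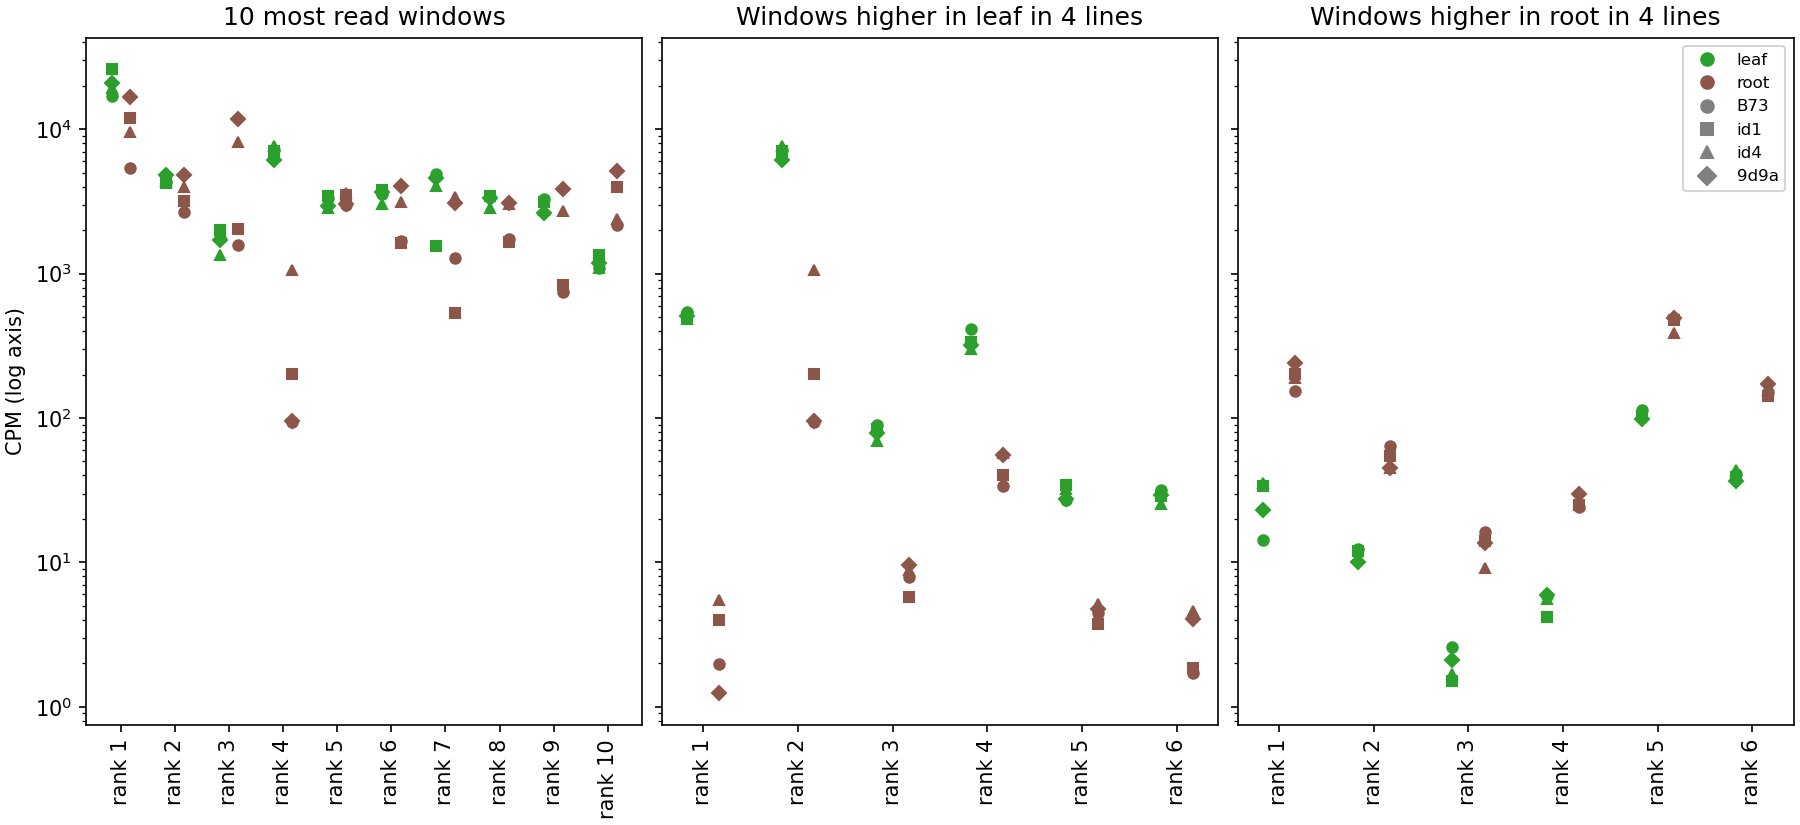
CPM (log axis) of each library at the 10 most read windows and at the 6 windows per tissue ranked by their weakest line (x axis: rank within each set, rank 1 being the most read or the largest ratio); green is leaf, brown is root and the marker shape gives the line. Leaf and root markers mix in several of the most read windows and stand apart in the other panels, whose windows were chosen for a large ratio.

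The root-high windows of the same ranking had an SD of the log2 ratio between lines of 0.13 to 0.51, against 0.27 to 1.55 in the leaf-high windows. The leaf-high windows also had larger ratios, with a fitted log2 of 2.74 to 7.36 against -1.95 to -2.94. The sets are therefore not alike in ratio size, and their spreads were not tested against each other. At 288.9 Mb of chromosome 1, root held 154 CPM in B73, 202 in id1, 189 in id4 and 241 in 9d9a, and leaf 14.2, 33.7, 35.5 and 23.1 (-2.94 ± 0.22, adjusted p = 0.000706). At 191.3 Mb of chromosome 2, root held 490 CPM in B73, 474 in id1, 386 in id4 and 492 in 9d9a, and leaf 98.0 to 114 (-2.12 ± 0.083, adjusted p = 1.16e-10). At 118.3 Mb of chromosome 10, root held 142 to 172 CPM and leaf 36.7 to 43.9 (-1.95 ± 0.080, adjusted p = 1.57e-10). The windows at 144.1 Mb of chromosome 4, 115.6 Mb of chromosome 5 and 90.1 Mb of chromosome 10 held 45.1 to 63.6, 24.2 to 29.8 and 9.16 to 16.1 CPM in root. Their leaf levels were 10.03 to 12.3, 4.19 to 5.90 and 1.497 to 2.61 CPM. Root and leaf were apart in all 6, which the ranking favours. Every root library lay above every leaf library in 13.2% of all windows.

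Among called windows with 1 direction in 4 lines, the largest root excess in CPM after 204.7 Mb of chromosome 5 was at 214.5 Mb of chromosome 1. Root held 343 CPM in B73, 581 in id1, 961 in id4 and 879 in 9d9a there, and leaf 83.9 to 120 (-2.62 ± 0.29, adjusted p = 0.00461). At 113 Mb of chromosome 10 root held 365 to 519 CPM and leaf 131 to 168 (-1.52 ± 0.11, adjusted p = 5.66e-07). Near the end of chromosome 9 were 2 strongly read windows with small differences. At 145.5 Mb root held 1851 to 2915 CPM and leaf 1509 to 1830 (-0.37 ± 0.13, adjusted p = 0.0395). That call was lost without id1 (-0.42, adjusted p = 0.146), id4 (-0.34, adjusted p = 0.167) or 9d9a (-0.27, adjusted p = 0.246) and without the block (-0.39, adjusted p = 0.0808). At 154.4 Mb root held 792 to 965 CPM and leaf 632 to 680 (-0.41 ± 0.095, adjusted p = 0.00301, and -0.36 with 0.054 without id1).

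All 4 lines had the same direction in 10294 of 20583 windows (50.01%), of which 5718 leaned to leaf and 4576 to root. In 6699 windows (32.5%) 1 line stood against 3, and in 3572 (17.4%) the lines were split evenly. Among called windows, whose choice used the same ratios, 7117 of 7506 had 1 direction. Agreement grew with level, from 23.7% of windows in level class 1 to 46.5% in class 3 and 59.9% in class 9. Across the 16033 windows with at least 50 reads in every library, the leaf to root ratios of line pairs, which share no library, correlated with Pearson's r of 0.68 to 0.84. The highest were B73 with id1 (0.84) and id4 with 9d9a (0.80), the pairs whose root libraries were also closest. Those root libraries enter the ratios, so this match is not a separate observation. The other 4 pairs lay between 0.68 and 0.73. These are correlations across windows, which share library and scaling and are not independent.

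**Figure D5:**
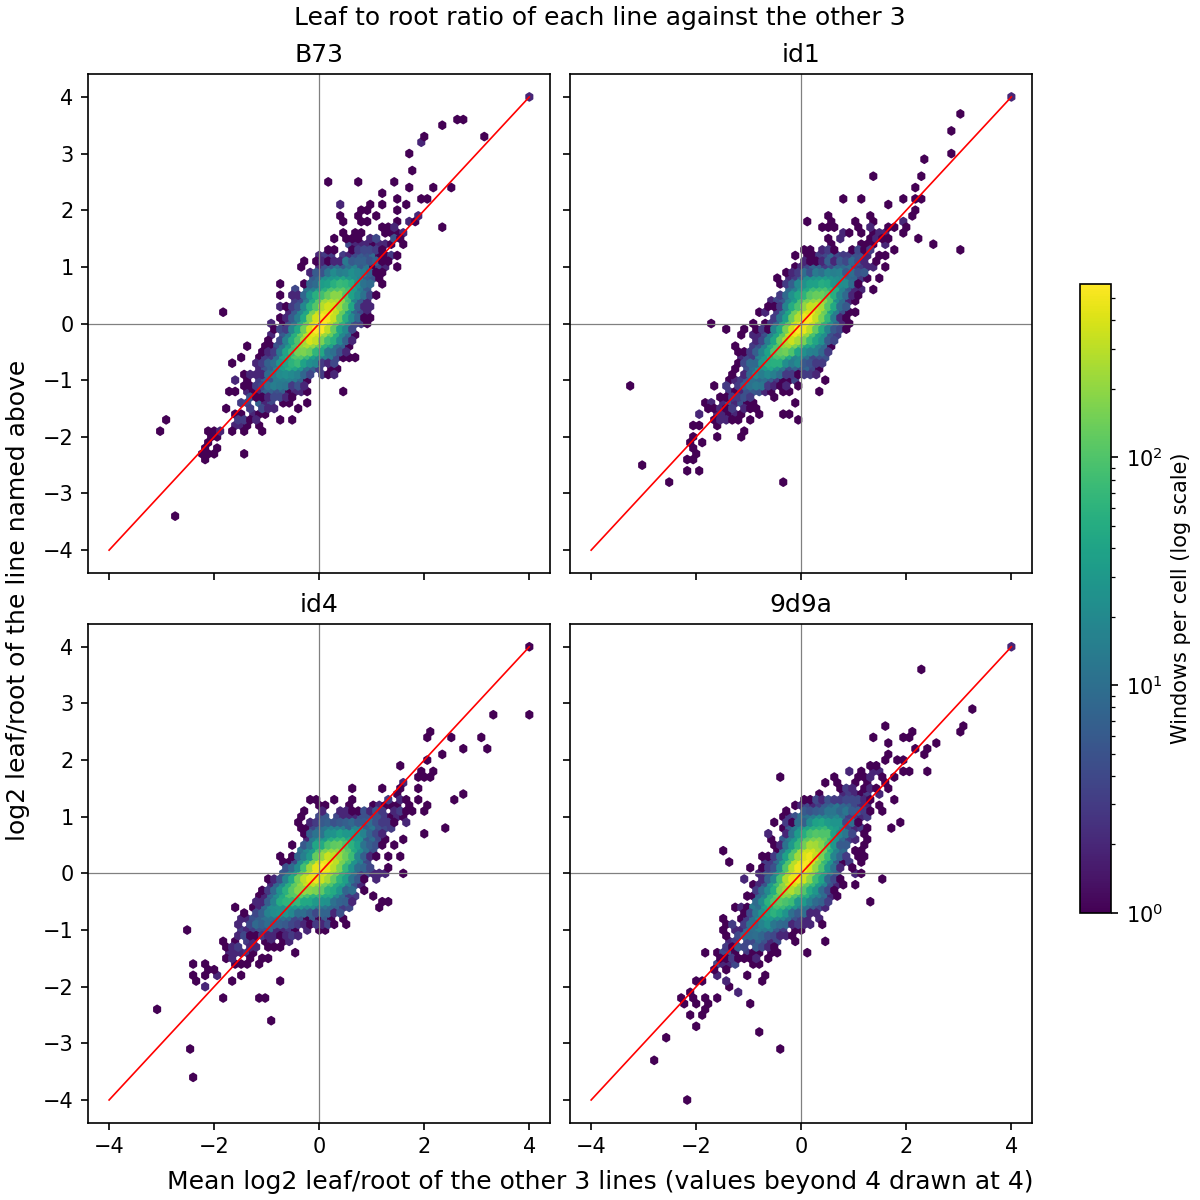
Each panel sets the log2 ratio of leaf over root of 1 line (y axis) against the mean of the other 3 lines (x axis), over all 20583 windows; colour gives the number of windows on a log scale, the red line marks equal values, and values beyond 4 are drawn at 4. Windows spread along the red line in all 4 panels.

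Calls made in 3 lines were checked in the fourth, which had no part in them. Of windows called higher in leaf without B73, 94.8% (2944 of 3107) were higher in leaf in B73. The share was 94.4% in id1 (2781 of 2946), 92.0% in id4 (3085 of 3354) and 96.4% in 9d9a (2852 of 2957). For windows called higher in root the shares were 97.1% in B73, 98.2% in id1, 93.4% in id4 and 92.8% in 9d9a. Windows not called in the 3 lines took the direction of their mean in 67.2% of cases above 0 and 70.2% below 0 in B73. In 9d9a those shares were 76.9% and 54.6%. The fits without B73 called 28.4% of windows, 15.1% towards leaf and 13.3% towards root. Without id1 they called 26.7%, 14.3% and 12.4%, without id4 32%, 16.3% and 15.7%, and without 9d9a 30.3%, 14.4% and 15.9%.

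Held-out differences were of similar size in B73 and 9d9a and smaller in id4. In id1 they were similar in windows higher in root and smaller in windows higher in leaf. In windows called higher in root, the median log2 ratio of the held-out line was -0.48 in B73 against -0.43 in the other 3, -0.48 in id1 against -0.45 and -0.38 in 9d9a against -0.41. In id4 it was -0.30 against -0.43. For windows called higher in leaf the medians were 0.39 against 0.44 in B73, 0.37 against 0.47 in id1, 0.32 against 0.46 in id4 and 0.48 against 0.43 in 9d9a. Of windows over 2-fold higher in leaf in the other lines, 49.0% were over 2-fold in B73, 43.3% in id1, 24.8% in id4 and 57.9% in 9d9a. The windows were chosen on the fitted log2, while the held-out line was measured on log2(CPM + 1), which narrows the ratios of low windows. On that scale the calling lines themselves had medians of 0.986 to 1.038, close to the 2-fold limit. The shares therefore mix this change of scale with any smaller difference in the held-out line. The direction was kept in 90.5% to 94.8% of these windows. Leaf and root of id4 were also the closest in reads, with 9.08% placed differently against 11.4% to 12.4% in the other lines.

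The 6 windows with the largest SD of the ratio between lines included 183.5 Mb of chromosome 5, described above, where id4 root was the high library and 9d9a root was as low as B73 root. At 46.8 Mb of chromosome 1, root held 1570 CPM in B73, 2037 in id1, 8130 in id4 and 11790 in 9d9a, while leaf held 1342 to 2013. Root was far above leaf in id4 and 9d9a and level with it in B73 and id1 (log2 of leaf over root 0.16, -0.016, -2.60 and -2.79 in B73, id1, id4 and 9d9a). At 134.2 Mb of chromosome 9 root held 744, 839, 2733 and 3832 CPM and leaf 2623 to 3263. At 71.5 Mb of chromosome 6 root held 16.6, 17.1, 81.3 and 94.1 CPM and leaf 83.3 to 99.1. At 131.2 Mb of chromosome 9 root held 51.2, 46.9, 196 and 187 CPM and leaf 8.74 to 22.2. In the 4 windows just given the B73 and id1 roots stood below those of id4 and 9d9a. None of the 4 passed the threshold in the paired fit (adjusted p = 0.0724 to 0.398), although the last was called in DESeq2 and without the block. At 82.5 Mb of chromosome 1 the lines differed in leaf instead, with 5.89 CPM in id1 and 24.9 to 57.6 in the others. Over all windows, the median SD between lines on the log2 scale was 0.13 in leaf and 0.17 in root, and root had the larger SD in 64.1% of windows.

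Neighbouring windows shared little of the tissue difference. The mean log2 ratio of a window correlated with that of the next one at Pearson's r = 0.066 over 20567 pairs, and at 0.020 for windows 200 kb apart. Read level itself was shared more, with r = 0.30 between neighbours and 0.22 at 5000 kb. Of the windows higher in leaf, 63.0% stood alone, with no called neighbour of the same direction, and of those higher in root 63.8%. Over all windows, 19.2% and 17.2% were called in these directions. At such shares most called windows would stand alone even with calls placed independently of their neighbours. The 63.0% and 63.8% therefore do not mark the called windows as isolated.

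Longer runs existed but differed by little. The longest in leaf covered 91.9 to 92.7 Mb of chromosome 10, 8 windows with a median log2 of 0.55. It held 342 ± 13.1 CPM in leaf and 255 ± 10.2 in root (SD, n = 4). The next covered 112.3 to 113 Mb of chromosome 7, 7 windows with 400.0 ± 5.61 CPM in leaf and 280 ± 12.5 in root. A further 4 runs of 6 windows lay on chromosomes 3, 5, 6 and 9. The longest in root covered 212 to 212.8 Mb of chromosome 5, 8 windows with 1261 ± 48.0 CPM in root and 1010 ± 43.0 in leaf, a median log2 of -0.32. Of 5 runs of 5 windows in root, that at 28.3 to 28.8 Mb of chromosome 4 stood out in size, with a median log2 of -1.04. It held 264, 252, 192 and 223 CPM in root of B73, id1, id4 and 9d9a, and 133, 153, 119 and 131 in leaf, so that root was above leaf in every line.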

How the data were processed

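The deposited files hold counts, whole-number read totals per 100 kb window, with no normalisation by the authors that the files show, per the file headers and values. Per the submitters' processing notes, the tools included Bowtie. Its settings, the genome build and the read lengths kept are not stated there. How a read with many genomic matches was handled is not stated either, which bears on repeats.

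Windows not listed were taken as 0. Counts were fitted with edgeR 4.0.16 in R 4.3.3 (robust quasi-likelihood, file totals as library sizes, no filter, line as a block, 3 residual degrees of freedom, common biological coefficient of variation 0.0858), with Benjamini-Hochberg adjustment over all windows at 0.05; the SE is derived from the F statistic. The pairing comes from the genotype labels, and leaf and root of the same line deviated together from their tissue means (r = 0.64, 0.79, 0.55 and 0.66 in B73, id1, id4 and 9d9a). Medians use log2(CPM + 1). Alternatives were TMM factors, totals without the 1% most read windows, DESeq2 1.42.0, the default low-count filter, no block, each line left out, a pseudocount of 5, at least 50 reads in every library and distance to the nearest chromosome end. The fit was tested on simulated data.

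The named windows were the 10 most read, the 6 with the largest CPM difference and the 6 with the largest weakest-line ratio in each direction among called windows with 1 direction in 4 lines, the 6 with the largest SD between lines among windows with at least 20 reads in every library, and the longest runs, with ties kept. The lines, classes and rules were chosen with earlier results of these data known. Intervals and errors of counts cover counting error only, since reads are not independent molecules.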

Additional observations from a re-analysis of the deposited data

Results flagged for a closer look

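In 95 groups of 4 values, 1 value lay far from the other 3, by Dixon's criterion, in 8 groups; chance alone flags about 1 in 20. At 183.5 Mb of chromosome 5 the id4 root library, at 1058 CPM, stood above the other root libraries. At 191.3 Mb of chromosome 2 the id4 root library was the low one, at 386 CPM. Among leaf libraries, 9d9a was high at 195 Mb of chromosome 4 (4810 CPM), id4 low at 299.6 Mb of chromosome 1 (2852 CPM) and id1 low at 115.6 Mb of chromosome 5 (4.19 CPM). The 9d9a ratio of leaf over root stood above the other lines on chromosome 10 (median log2 0.082), in arm class 5 (0.17) and in level class 4 (0.14). The TMM factor of the 9d9a root library was 0.952, the lowest of the 8, and with TMM factors the medians over all windows lay between 0 and 0.019 in the 4 lines, against 0.007 to 0.086 with file totals.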

How the results depend on the processing

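The total of 7506 windows fell to 4887 with no replicate block, and the 3958 higher in leaf to 2458 with no replicate block and 2237 in DESeq2, which left 2395 windows without an adjusted p. Leaving out 1 line gave 5490 to 6590 calls. No window called in the paired fit changed sign under any of the 9 alternatives. The difference between chromosomes was 0.030 with 50 reads in every library, against 0.020. The arm contrast of 0.12 was 0.073 with a pseudocount of 5, 0.085 with no centromere, and -0.0085, 0.062 and 0.034 in the lowest, middle and highest of 3 groups of read level, an alternative added after seeing the data. The level contrast of -0.19 was -0.094 with a pseudocount of 5, which compresses low levels, -0.12 with levels from leaf of lines 714 and 714H and -0.26 with levels from root, both also added after seeing the data. Where levels come from 1 tissue, windows high there are moved towards that tissue by construction. The median correlation between lines, 0.66, was 0.72 with a pseudocount of 5 and 0.73 with 50 reads in every library. Over the 31 named windows, 249 of the alternative values kept direction and side of the threshold, 24 lost it, 5 gained it and 1 changed sign, at 158.3 Mb of chromosome 8 without id4 (0.038). Other causes were not tested. Depth limits the least read windows, where the counting error of a line's log2 ratio of raw reads was 0.56 in the median window of level class 1. That value leaves out the added 1 CPM.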

Other observations

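The leaf libraries of lines 714 and 714H, which entered no comparison, were set against the midpoint of the leaf and root means on the log2(CPM + 1) scale. In windows over 2-fold higher in root, 96.9% lay on the leaf side in 714 and 96.9% in 714H. In windows over 2-fold higher in leaf, 89.9% and 94.2% lay on the leaf side. Over all called windows the shares were 80.5% and 79.4% for those higher in leaf and 78.9% and 83.0% for those higher in root. In windows not called, they were 67.5% and 64.7% where the fitted difference was above 0 and 51.4% and 55.9% where it was below 0.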
